A study of Mus musculus with 4 samples.

Results

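The genes described here were 7 matrix metalloproteinases (Mmp2, Mmp3, Mmp9, Mmp10, Mmp13, Mmp14 and Mmp15) and 3 tissue inhibitors of metalloproteinases (Timp1, Timp2 and Timp3). These 10 genes were chosen by name, with earlier results of these data known, out of the 27514 genes shared by the gene tables of the 4 libraries. They were followed across the cell classes of mouse small intestinal adenomas profiled by droplet single-cell RNA sequencing. The 4 libraries fell into 2 groups of 2. ApcMin libraries came from C57BL/6 mice with the genotype ApcMin/+;Lef1 +/+, and VApcMinL libraries came from C57BL/6 mice with the genotype ApcMin/+;Lef1 fl/fl;Villin-Cre, so every library carried the Apc Min allele. Villin drives Cre in the intestinal epithelium, and the labels call the deletion constitutive, so fibroblasts, endothelial cells and myeloid cells were not targeted. All mice were 11 weeks old and labelled male. Each library pooled 3 to 10 tumors that were dissociated with proteases, including collagenases, and loaded without sorting. Replicate 1 of both groups was made with version 2 of the 10x 3′ kit and replicate 2 with version 3.

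Matrix metalloproteinases are zinc-dependent enzymes that are made as inactive precursors and, once activated, cleave collagens, proteoglycans and other proteins outside the cell. Some are secreted (the gelatinases Mmp2 and Mmp9, the stromelysins Mmp3 and Mmp10, the collagenase Mmp13) and some are held in the cell membrane (Mmp14 and Mmp15). The tissue inhibitors bind the active site of these enzymes. Timp2 also takes part in the activation of the Mmp2 precursor by Mmp14, and Timp3 stays bound to the extracellular matrix. In intestinal tumors these genes are known mainly from stromal cells and macrophages, with the membrane-type enzymes also described in tumor epithelium.

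Mmp13, Mmp3 and Mmp10 are neighbours. In GRCm38 (GENCODE annotation) they lie on the plus strand of chromosome 9 at positions 7272514 to 7283331, 7445822 to 7455975 and 7502352 to 7510240, in a cluster of 10 annotated Mmp genes that spans 427 kb. The other members lie apart: Mmp2 and Mmp15 on chromosome 8, Mmp9 on chromosome 2, Mmp14 on chromosome 14, Timp1 on chromosome X, Timp2 on chromosome 11 and Timp3 on chromosome 10. Timp1 and Timp3 overlap genes on the opposite strand (Syn1 and Syn3) and Timp2 overlaps Cep295nl on its own strand, and how reads in those overlaps were assigned is not given in the sources used here. Promoters of 8 members were found in the RefSeq table for GRCm38.p6. Those of Mmp2 and Mmp9 were not in it, so these genes were not searched for motifs. In the 250 bases before the start site, the AP-1 motif TGANTCA (both strands) was found in 3 of the 8, and these were the 3 genes of the cluster. The motif was present in 6.75% of all 32851 promoters of the table over the same length. The TCF/LEF motif CTTTGAT (both strands) was found in 0 of the 8 member promoters and in 3.21% of all promoters. The 3 windows with the AP-1 motif are shown because they set the 3 neighbours apart from the other member promoters, although of the 3 genes Mmp10 and Mmp13 were high in fibroblasts and Mmp3 was rare, with the motif in capitals at 46, 63 and 35 bases before the start site of Mmp3, Mmp10 and Mmp13. They span chr9:7445572-7445821, chr9:7502092-7502341 and chr9:7272264-7272513 on the plus strand. A match is a description of the letters and not a measured binding site.
Mmp3: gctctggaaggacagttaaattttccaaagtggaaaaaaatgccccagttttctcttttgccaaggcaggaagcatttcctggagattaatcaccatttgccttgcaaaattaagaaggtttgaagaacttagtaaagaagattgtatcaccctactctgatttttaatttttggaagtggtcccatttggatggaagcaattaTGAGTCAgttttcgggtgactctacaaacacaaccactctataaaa
Mmp10: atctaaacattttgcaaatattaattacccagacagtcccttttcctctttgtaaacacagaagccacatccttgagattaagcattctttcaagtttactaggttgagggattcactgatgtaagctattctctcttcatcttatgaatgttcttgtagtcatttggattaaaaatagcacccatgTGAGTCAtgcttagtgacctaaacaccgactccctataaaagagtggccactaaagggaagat
Mmp13: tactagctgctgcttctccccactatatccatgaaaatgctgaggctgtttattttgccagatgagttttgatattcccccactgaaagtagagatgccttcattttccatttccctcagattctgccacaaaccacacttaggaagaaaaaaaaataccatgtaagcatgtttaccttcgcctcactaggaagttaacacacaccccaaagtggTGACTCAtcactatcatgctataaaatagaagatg

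The libraries of replicate 1 held 44660305 UMIs for ApcMin and 49009488 for VApcMinL, and those of replicate 2 held 98714025 for ApcMin and 128247396 for VApcMinL. Series of 4 values below follow this order. Barcodes with at least 1000 UMIs and at most 20% mitochondrial UMIs numbered 2840, 2965, 2146 and 4449. Marker genes, none of them a member, put cells into 5 classes: 149 in the fibroblast gate, 205 in the endothelial gate, 349 in the myeloid gate, 3787 in the adenoma gate (epithelial cells with at least 4 of 11 tumor markers such as Notum, Axin2 and Prox1) and 6011 in the gate of other epithelial cells. The fibroblast gate held 80, 40, 20 and 9 cells and the endothelial gate 120, 70, 8 and 7, so the replicate 2 values of both rest on few cells. The 2 libraries of replicate 1 shared 18 barcodes, of which 2 were in the fibroblast gate in either library. Levels are given as CPM, the UMIs of a gene on a counts-per-million scale over all UMIs of the same class and library. The targeted gene Lef1 stood at 8.43, 27.9, 31.3 and 21.0 CPM in the adenoma gate. With kit 2 it was therefore higher where the label says VApcMinL, against the deletion, and with kit 3 it was lower there. Where the 3′ tags lie relative to the deleted exons was not tested, and neither was the labelling of the libraries. Nothing in the labels names separate animals for the libraries, so p-values measure only the spread between these libraries.

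The fibroblast gate was the class in which most members were called higher. For each class, UMIs were summed per library and compared with the mean of the other 4 classes (edgeR quasi-likelihood test with the library as a block, 4 libraries, 20 sums, Benjamini-Hochberg adjustment over 9548 genes). Of the 9 members that passed the filter on low counts, 8 were higher in the fibroblast gate and 1 (Mmp15) was lower, where 20.8% of all genes tested were called higher and 18.5% lower. The median log2 difference was 3.88 over the 9 members and -0.08 over all genes. A gene that is high in 1 class only can pass the filter through that class, so these counts describe the members and are no separate test of the list. In the endothelial gate 2 members were higher and 1 was lower (19.6% of genes in each direction). In the myeloid gate 4 were higher and 2 lower (24.6% and 19.6%). In the adenoma gate 1 was higher and 5 were lower (30.7% and 22.5%), and in other epithelial cells 1 was higher and 8 were lower (31.3% and 24.8%). Fitted log2 differences against classes at or near 0 UMIs depend on the prior count of the fit and are not bounds.

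**Figure D1:**
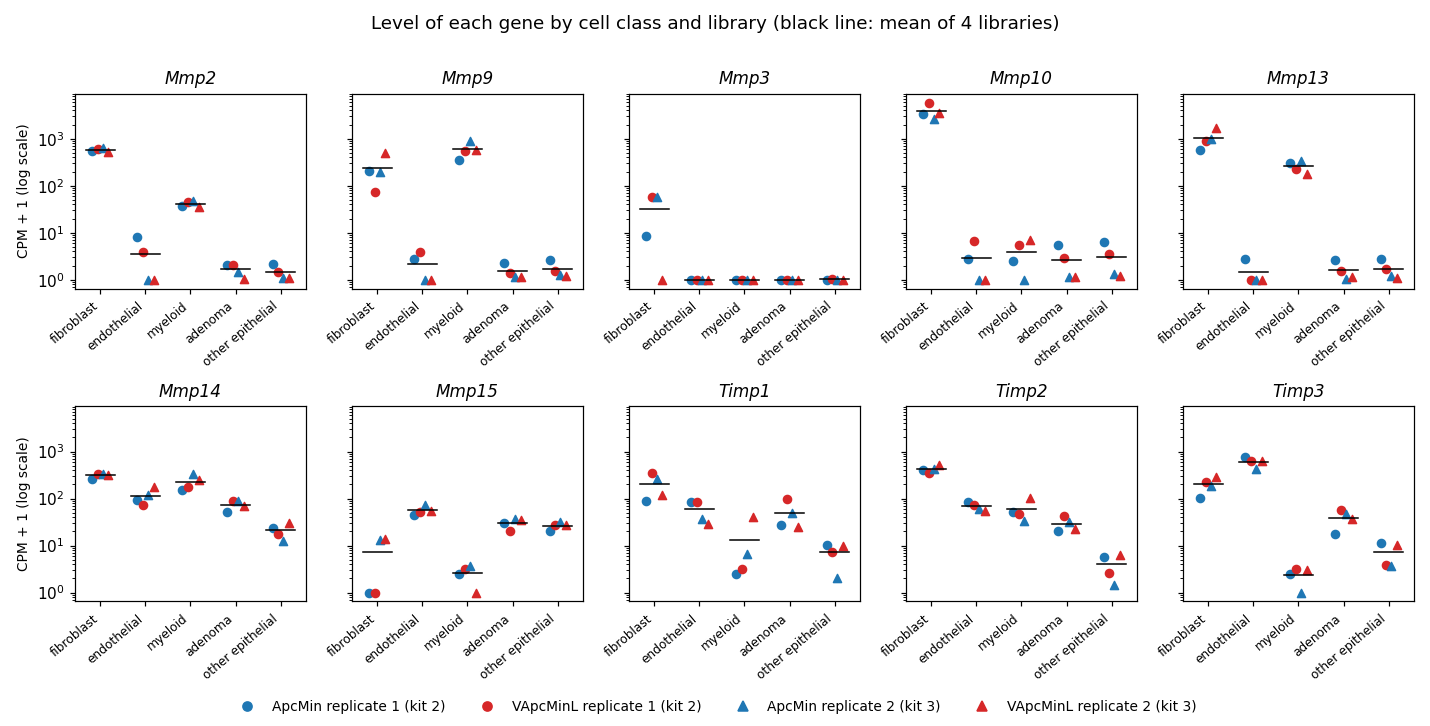
Level of each of the 10 genes in the 5 cell classes, in CPM plus 1 on a log axis. Each point is 1 library (colour: group, shape: kit) and the black line is the mean of 4 libraries; Mmp10 is at 2623 or more in the fibroblast gate of every library and at 5.94 or less in every other class, and Timp3 is highest in the endothelial gate.

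The stromelysin-2 gene Mmp10 stood at 3342, 5875, 2623 and 3483 CPM in the fibroblast gate (mean 3831 ± 1414, SD, n = 4 libraries). Its level in every other class was between 0 and 5.94, so fibroblasts and the rest did not overlap. The fitted log2 difference was 11.28 (SE 0.41, adjusted p = 9.0e-15, edgeR quasi-likelihood test). Of the 7283 Mmp10 UMIs in all barcodes kept, 59.2% lay in the fibroblast gate and 30.9% in cells that passed both the fibroblast and the smooth muscle gate. The order of the other 4 classes cannot be read, since their ranges overlapped at each step.

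The collagenase-3 gene Mmp13, whose product cleaves fibrillar collagens, was found in 2 classes. In the fibroblast gate it stood at 565, 889, 998 and 1696 CPM (1037 ± 476) and in the myeloid gate at 302, 229, 335 and 174 (260 ± 72.5). Every fibroblast value was above every myeloid value, which no longer held without the top fibroblast of VApcMinL replicate 2 (327, against a highest myeloid value of 335), and every myeloid value was above the other 3 classes, whose highest library was at 1.80. By the edgeR quasi-likelihood test the log2 difference was 8.37 (SE 0.40, adjusted p = 6.0e-13) for fibroblasts and 6.41 (SE 0.42, adjusted p = 6.9e-11) for myeloid cells. The lower call in the endothelial gate (-4.67, SE 1.62, adjusted p = 0.0271 by the edgeR test) rests on 1 UMI in all 4 libraries and was lost when ApcMin replicate 1, VApcMinL replicate 1 or ApcMin replicate 2 was left out (adjusted p = 0.0737, 0.111 and 0.0545 by the same test).

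Stromelysin-1 (Mmp3) was rare. Its fibroblast level was 7.56, 57.4, 55.9 and 0 CPM, from 4, 14, 18 and 0 UMIs. Single cells held 11 of the 14 UMIs in VApcMinL replicate 1 and all 18 in ApcMin replicate 2, and without the top cell the Mmp3 level of the first 3 libraries was 3.84, 12.5 and 0. The count of 0 in VApcMinL replicate 2 allows up to 39.1 CPM there, so the libraries cannot be ordered at this depth. Outside the fibroblast gate the 5 classes held 1 Mmp3 UMI, in other epithelial cells. Mmp3 did not pass the filter on low counts for the comparison of classes and was not tested there.

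Gelatinase A (Mmp2) was the member whose fibroblast values spread least relative to their mean. It stood at 550, 610, 622 and 509 CPM in the fibroblast gate (573 ± 52.9) and at 35.6, 44.4, 46.3 and 33.7 in the myeloid gate (40.0 ± 6.32). The fibroblast, myeloid and endothelial ranges did not overlap with one another, and no library exceeded 7.19 in the endothelial gate, 1.10 in the adenoma gate or 1.17 in other epithelial cells. The edgeR quasi-likelihood test gave a log2 difference of 7.73 (SE 0.33, adjusted p = 9.0e-14) for fibroblasts and 3.51 (SE 0.48, adjusted p = 3.7e-06) for myeloid cells.

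Gelatinase B (Mmp9), known from macrophages and neutrophils, was highest in the myeloid gate at 353, 538, 894 and 586 CPM (593 ± 225). In the fibroblast gate it stood at 204, 73.7, 199 and 483 (240 ± 173). The myeloid value was the higher of the 2 in 4 of 4 libraries, but the ranges overlapped. Both classes were above the other 3, whose highest library was at 2.80. The log2 differences were 8.01 (SE 0.36, adjusted p = 1.5e-13) for the myeloid gate and 5.44 (SE 0.46, adjusted p = 5.6e-09) for the fibroblast gate by the edgeR quasi-likelihood test.

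Within the myeloid gate, the enzymes were highest in cells with the complement C1q genes, which many tissue macrophages express. Cells with UMIs of at least 2 of the 3 C1q genes numbered 103, 60, 22 and 47, and the others 35, 28, 17 and 37. The split is a description with no test, and it used genes that also belong to the gate. Mmp9 stood at 499, 718, 1369 and 886 CPM in the cells with C1q and at 37.4, 25.6, 45.6 and 39.2 in the others. Mmp13 stood at 442, 310, 523 and 270 in the cells with C1q, and no UMI was found in the others. Mmp14 stood at 215, 219, 497 and 352 against 23.4, 42.6, 30.4 and 67.2. All 3 genes were higher in the C1q cells of every library, with no overlap. Mmp2 was at 52.0 to 72.3 in the C1q cells and had no UMI in the others, whereas Timp2 was higher in the C1q cells of 3 libraries and lower in ApcMin replicate 2 (29.8 against 38.0). The neutrophil gene S100a8 was at 106 to 1143 CPM in the cells without C1q and at most 21.0 in the cells with C1q. Csf3r, another neutrophil gene, did not follow S100a8 in every library. It was higher in the cells with C1q in both kit 2 libraries (39.1 against 34.1 CPM in VApcMinL replicate 1). In the kit 3 libraries Csf3r was lower in the cells with C1q, at 29.8 against 30.4 (ApcMin) and 30.6 against 72.8 (VApcMinL). Which cells made up the side without C1q was not tested.

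**Figure D2:**
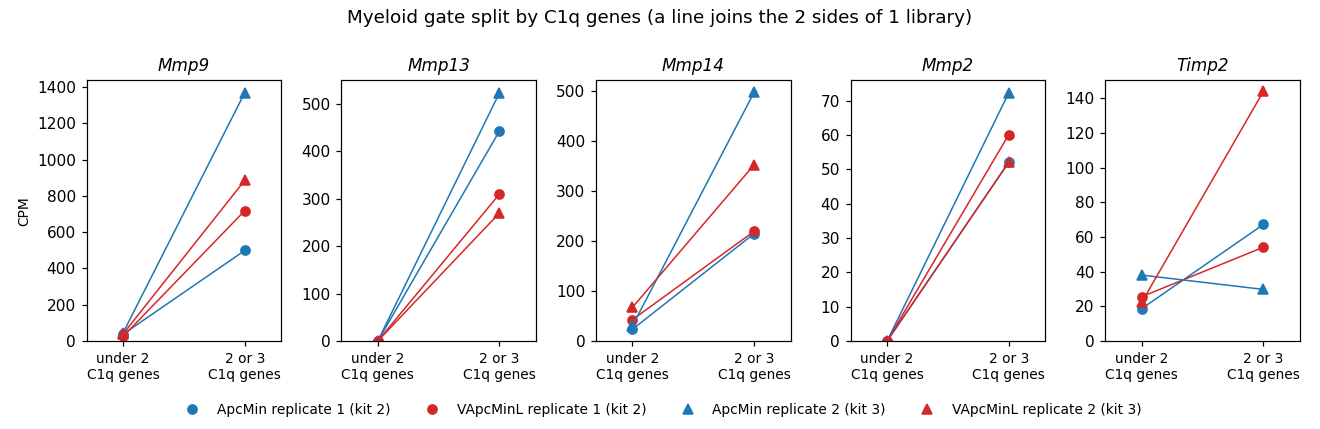
Levels of Mmp9, Mmp13, Mmp14, Mmp2 and Timp2 in CPM (linear axes from 0) in the myeloid gate, split into cells with under 2 and with 2 or 3 C1q genes. A line joins the 2 sides of 1 library; Mmp9, Mmp13, Mmp14 and Mmp2 are higher on the C1q side in all 4 libraries, and Timp2 in 3 of them.

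The membrane-type enzyme Mmp14, which activates the Mmp2 precursor, was the most widely spread of the enzymes. It stood at 253, 332, 339 and 313 CPM in the fibroblast gate (309 ± 38.8) and at 154, 173, 330 and 252 in the myeloid gate (227 ± 80.4). In the endothelial gate it stood at 89.8, 70.1, 119 and 177 (114 ± 46.8). These 3 ranges overlapped from step to step, although the order held in every library. Only the last step was clear: the adenoma gate, at 50.7, 86.2, 89.4 and 67.8, lay above other epithelial cells, at 22.6, 16.3, 11.7 and 29.0, with no overlap. By the edgeR quasi-likelihood test Mmp14 was higher in fibroblasts (log2 difference 1.78, SE 0.19, adjusted p = 1.7e-07) and myeloid cells (1.74, SE 0.18, adjusted p = 8.4e-08). The same test called it lower in other epithelial cells (-2.64, SE 0.21, adjusted p = 1.2e-09) and in the adenoma gate (-0.62, SE 0.19, adjusted p = 0.0085). The adenoma call was lost without ApcMin replicate 1 (-0.53) or VApcMinL replicate 2 (-0.49).

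Mmp15, the other membrane-type enzyme, had the opposite distribution. It stood at 43.1, 50.4, 71.6 and 54.6 CPM in the endothelial gate (54.9 ± 12.1), from 24, 18, 6 and 4 UMIs. The adenoma gate followed at 28.7, 19.1, 36 and 34.0 and other epithelial cells at 19.2, 26.3, 31.1 and 25.8, and the 2 epithelial ranges overlapped. The endothelial values were above both epithelial classes in each library, and the fibroblast values (0, 0, 12.4 and 13) were below them. In barcodes with 10 to 100 UMIs, a measure of free RNA, Mmp15 stood at 24.4, 23.8, 45.2 and 54.9 CPM. This was above the adenoma gate except in ApcMin replicate 1, and above other epithelial cells except in VApcMinL replicate 1. It was below the endothelial gate except in VApcMinL replicate 2 (54.9 against 54.6). The part of free RNA in these Mmp15 levels was not tested. The edgeR quasi-likelihood test called Mmp15 higher in the endothelial (2.39, SE 0.37), adenoma (1.52, SE 0.28) and other epithelial gates (1.64, SE 0.27), with adjusted p = 2.8e-05, 0.00012 and 3.1e-05. It called Mmp15 lower in the myeloid gate (-3.42, SE 0.66, adjusted p = 0.000225 by the edgeR test) and in the fibroblast gate (-2.12, SE 0.64, adjusted p = 0.0121), and the fibroblast call rests on 5 UMIs and was lost without ApcMin replicate 1 (adjusted p = 0.12) or VApcMinL replicate 1 (adjusted p = 0.0652).

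Each of the 3 inhibitors had a leading class. Timp2 was highest in the fibroblast gate at 401, 352, 420 and 509 CPM (420 ± 65.4), above the endothelial gate at 82.7, 72.9, 59.7 and 54.6, with no overlap. Timp1, an inhibitor known to be induced in injured and inflamed tissue, was also highest in the fibroblast gate, at 87.0, 356, 264 and 117 (206 ± 127), above the endothelial gate at 84.5, 84.1, 35.8 and 27.3. The lowest fibroblast and the highest endothelial value of Timp1 were both from ApcMin replicate 1, so its ranges were apart only narrowly, and without the top fibroblast of that library (69.9) they overlapped. By the edgeR quasi-likelihood test the fibroblast log2 difference was 3.88 (SE 0.31, adjusted p = 2.1e-09) for Timp2 and 2.96 (SE 0.49, adjusted p = 5.5e-05) for Timp1. Timp3, the matrix-bound inhibitor, was highest in the endothelial gate at 751, 642, 418 and 614 (606 ± 139), followed by the fibroblast gate at 102, 221, 186 and 287 (199 ± 77). No step in the order of the 5 classes overlapped for Timp3, down to the myeloid gate, which held 3 Timp3 UMIs in all, but without the top fibroblast of ApcMin replicate 1 (42.6) the fibroblast range overlapped that of the adenoma gate. Barcodes with 10 to 100 UMIs, a measure of free RNA, held Timp3 at 109, 99.4, 341 and 351 CPM, above the fibroblast gate in 3 of 4 libraries and below the endothelial gate in all 4, and the part of free RNA in the fibroblast level was not tested. The edgeR quasi-likelihood test gave log2 differences of 4.97 (SE 0.33, adjusted p = 1.4e-10) in the endothelial gate and 2.85 (SE 0.40, adjusted p = 6.5e-06) in the fibroblast gate. Timp1 in the myeloid gate was at 1.48, 2.22, 5.45 and 39.6, and the last value came from 1 cell that held all 20 UMIs.

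Within the epithelium, the inhibitors and Mmp14 were higher in the adenoma gate than in other epithelial cells. This comparison was read from the same fit and was chosen after the class values had been seen. Of the 9 members tested, 4 were higher and 0 lower in the adenoma gate (edgeR quasi-likelihood test), where 26.7% of all genes were higher and 25.2% lower, and the members' median log2 difference was 0.20 against 0.05 for all genes. At an unadjusted p under 0.05 the members that passed were also 4 of 9, against 5494 of all 9548 genes. Timp1 stood at 26.0, 97.9, 49.3 and 24.1 CPM in the adenoma gate and at 9.20, 6.32, 1.08 and 8.91 in other epithelial cells. Timp2 stood at 19.4, 41.4, 31.5 and 21.1 against 4.63, 1.60, 0.453 and 5.42. Timp3 stood at 17.0, 55.1, 45.3 and 35 against 10.4, 2.89, 2.62 and 9.29. None of the 3 ranges overlapped between the epithelial classes. The log2 differences were 2.64 (SE 0.54, adjusted p = 0.000431) for Timp1, 3.20 (SE 0.42, adjusted p = 3.8e-06) for Timp2, 2.41 (SE 0.38, adjusted p = 3.1e-05) for Timp3 and 1.62 (SE 0.22, adjusted p = 6.9e-06) for Mmp14, all by the edgeR quasi-likelihood test. Mmp15 did not pass the test between these classes (-0.10, SE 0.21, adjusted p = 0.728 by the edgeR test) and was higher in the adenoma gate in 3 of 4 libraries. The barcodes with 10 to 100 UMIs held Timp2 at 69.1, 62.8, 69.0 and 89.1 CPM, and both Timp2 and Timp3 were higher there than in either epithelial class of the same library. Timp2 was also higher in them than in the endothelial gate of both kit 3 libraries. Mmp14 in these barcodes stood at 27.2, 34.3, 30.1 and 39.2 CPM, above other epithelial cells and below the adenoma gate in every library. Timp1 in them stood at 13.8, 27.6, 9.62 and 5.85 CPM, below the adenoma gate in every library. These Timp1 values were above other epithelial cells except in VApcMinL replicate 2. The part of free RNA in the epithelial levels was not tested.

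Summed over the 4 libraries, the adenoma gate held 70.2% of the Mmp14 UMIs in the cells kept, 54.1% for Mmp15, 77.5% for Timp1, 65.2% for Timp2 and 70.0% for Timp3. VApcMinL replicate 2, with 2250 of the 3787 adenoma cells, weighed most in these sums. The share by library ran from 47.3% to 79.8% for Mmp14, 51.8% to 83.3% for Timp1, 32.4% to 80.1% for Timp2 and 23.7% to 86.3% for Timp3. For Mmp15 it was 53.1%, 28.3%, 32.3% and 73.9%, and other epithelial cells held more Mmp15 UMIs than the adenoma gate in VApcMinL replicate 1 (590 against 245) and ApcMin replicate 2 (1238 against 600). For the secreted enzymes the largest share lay elsewhere, with Mmp2 (62.5%), Mmp3 (83.7%), Mmp10 (59.2%) and Mmp13 (47.8%) in the fibroblast gate and Mmp9 (72.0%) in the myeloid gate. These shares depend on how many cells of each class survived dissociation and passed the gates.

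**Figure D3:**
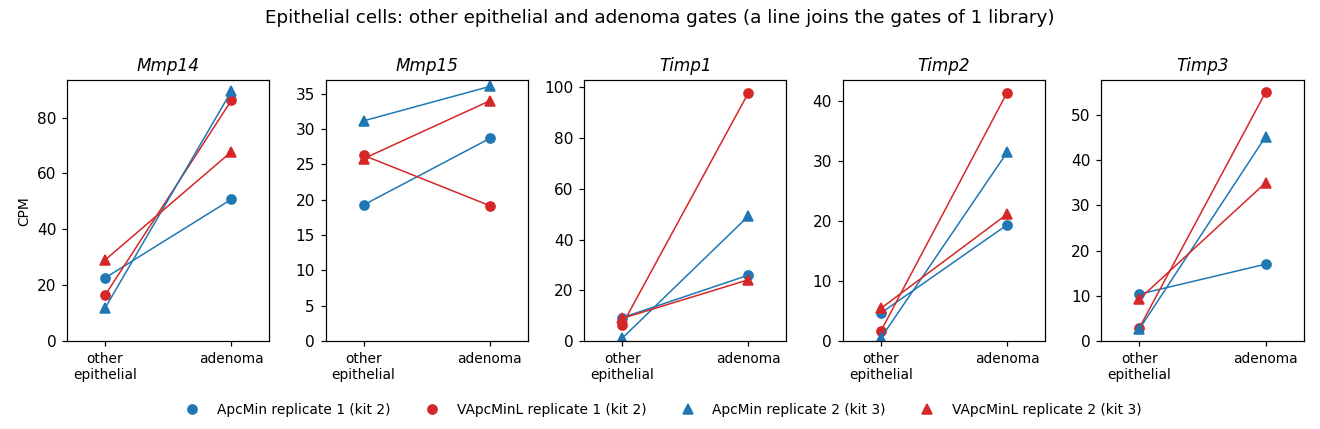
Levels of Mmp14, Mmp15, Timp1, Timp2 and Timp3 in CPM (linear axes from 0) in other epithelial cells and in the adenoma gate. A line joins the 2 classes of 1 library; Mmp14 and the 3 inhibitors are higher in the adenoma gate in all 4 libraries, and Mmp15 in 3 of them.

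Single fibroblasts differed in how the members were spread. With each cell thinned to 1000 UMIs, an Mmp10 UMI was found in 68.8%, 70.0%, 75.0% and 55.6% of fibroblasts (exact 95% Clopper-Pearson intervals 57.4 to 78.7, 53.5 to 83.4, 50.9 to 91.3 and 21.2 to 86.3, which cover counting error only). In other epithelial cells, thinned alike, the share was at most 0.943%. Mmp2 was found in 41.3%, 42.5%, 45.0% and 44.4% of fibroblasts and Timp2 in 37.5%, 25%, 35% and 44.4%. The top cell held 5.15%, 10.1%, 10.5% and 25.6% of the Mmp2 UMIs of its library, 13.5%, 17.9%, 25.5% and 33.7% of the Mmp10 UMIs and 5.19%, 10.5%, 13.3% and 51.3% of the Timp2 UMIs. The highest share was each time that of the library with 9 fibroblasts. Mmp13 was found in 15.0%, 25%, 25% and 11.1% and Mmp9 in 5%, 7.50%, 5% and 11.1% of fibroblasts. Median UMIs per fibroblast before thinning were 5941, 5482, 15634 and 8188, and the unthinned shares of Mmp10 were 86.3%, 82.5%, 90% and 88.9%.

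Mmp9 was concentrated in single fibroblasts, and Mmp13, Timp1 and Timp3 were so in some libraries. The cell with the most Mmp9 held 50.9%, 66.7%, 51.6% and 97.3% of all fibroblast Mmp9 UMIs in the 4 libraries. Those 4 cells held 55, 12, 33 and 36 Mmp9 UMIs and 174, 229, 487 and 366 fibroblast marker UMIs. They held 1, 1, 1 and 0 UMIs of the 15 myeloid markers. The top cell held 25.4%, 21.7%, 35.2% and 83.1% of the Mmp13 UMIs, and that of VApcMinL replicate 2 held 13 myeloid marker UMIs beside 60 fibroblast marker UMIs. For Timp1 the top cell held 21.7%, 57.5%, 65.9% and 44.4%, and for Timp3 59.3%, 44.4%, 40% and 72.7%. With the top cell of each library left out, the mean fibroblast level went from 240 to 62.5 CPM for Mmp9, from 1037 to 531 for Mmp13, from 199 to 95.1 for Timp3 and from 206 to 104 for Timp1. For Mmp2 it went from 573 to 551 and for Mmp10 from 3831 to 3239. Within each library fibroblasts stayed above the adenoma gate without these cells for all 6 genes, but Timp1 fell below the endothelial gate in ApcMin replicate 1 (69.9 against 84.5). Cells with Mmp13 were mostly also cells with Mmp10, at 23 of 25, 14 of 14, 10 of 10 and 4 of 4 cells without thinning, where 69 of 80, 33 of 40, 18 of 20 and 8 of 9 fibroblasts held an Mmp10 UMI. A single library of 9 fibroblasts (VApcMinL replicate 2) gave the highest Mmp13 and Mmp9 levels, and without its top cells they were 327 and 16.6.

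**Figure D4:**
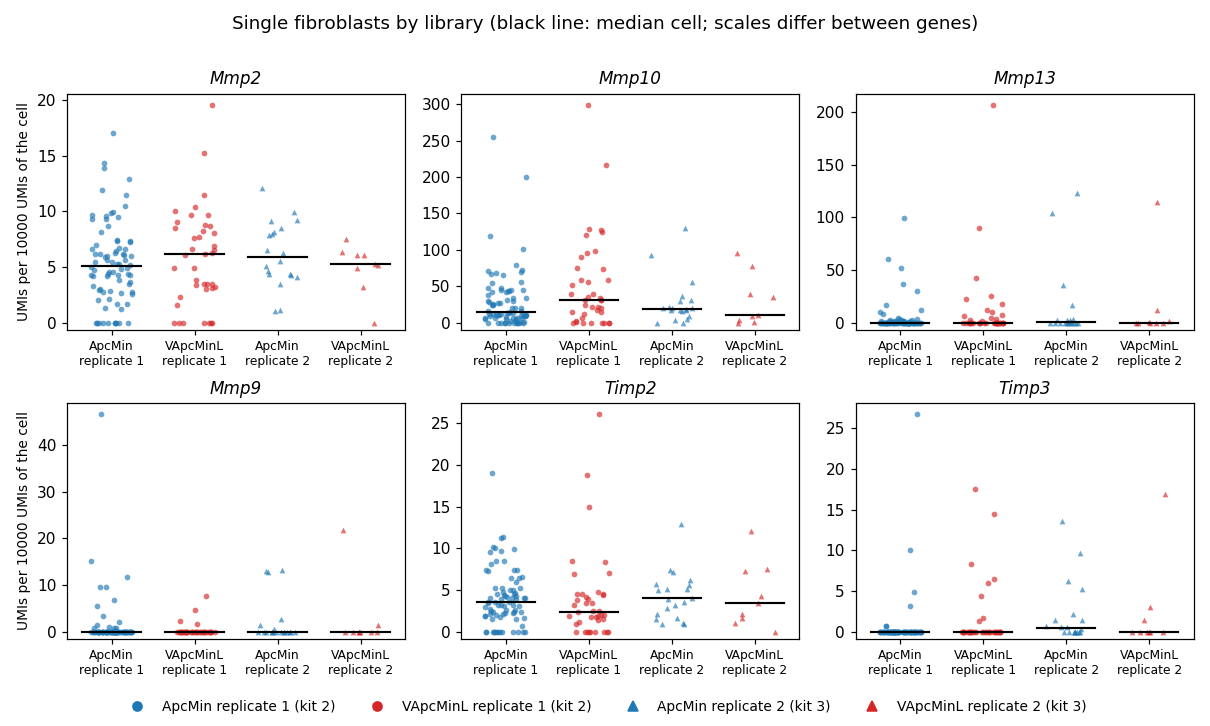
UMIs per 10000 of the cell for 6 genes in every fibroblast of the 4 libraries (linear axes that differ between genes; points are single cells and the black line is the median cell). Mmp2 and Timp2 are spread over most cells, with the median cell between 2.39 and 6.12, whereas for Mmp9 most cells are at 0 and 1 cell of a library holds at least 50.9% of the UMIs.

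Cells that passed both the fibroblast and the smooth muscle gate (44, 24, 21 and 8 cells) were kept out of the classes. They held Acta2, a smooth muscle and myofibroblast actin, at 2734 to 4480 CPM, against 65.2 to 516 in the fibroblast gate. Mmp10 stood at 3725, 4281, 755 and 1033 in these cells, below the fibroblast gate of the same library in 3 of 4. Mmp2 was lower in them than in the fibroblast gate in 4 of 4 libraries, at 199, 292, 192 and 76.1. Mmp14 stood at 327, 309, 326 and 337, inside the range of the fibroblast gate. These values are a description with no test.

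Immediate early genes, which rise when tissue is dissociated with enzymes, differed between the same libraries. The summed level of 12 such genes in the fibroblast gate was 11785, 8403, 2138 and 4448 CPM, so both kit 2 libraries were above both kit 3 libraries. In the adenoma gate it was between 3367 and 3938. Mmp10 in the fibroblast gate was highest in VApcMinL replicate 1 and lowest in ApcMin replicate 2, and the part of dissociation in the levels of Mmp10 and its neighbours was not tested.

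No member passed the test between the genotypes in any class. VApcMinL was compared with ApcMin within each class with the kit as a block (edgeR quasi-likelihood test, 2 against 2 libraries). In the fibroblast, endothelial, myeloid, adenoma and other epithelial gates 9, 5, 5, 7 and 9 members passed the filter, and 0 were called in each. Of all genes tested, 0.0208%, 0.026%, 0.0185%, 0% and 0% were called, which was 1 gene in each of the first 3 classes, Xist, and none in the epithelial classes. At an unadjusted p under 0.05, 118, 111, 177, 33 and 39 genes passed, among them Mmp13 in the fibroblast and in the myeloid gate and no other member. DESeq2 called 0 members as well, and 1, 2, 0, 6 and 5 genes. Xist, the RNA of the inactive X chromosome, stood at 1.89 and 0 CPM in ApcMin fibroblasts and at 1065 and 326 in VApcMinL fibroblasts, although all mice were labelled male. A difference in sex, as far as Xist reads it, and the Lef1 genotype therefore cannot be told apart.

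In the fibroblast gate, the class where most members were high, the fitted log2 difference of VApcMinL against ApcMin was -0.12 (SE 0.28) for Mmp2, 0.55 (SE 0.24) for Mmp10, 0.65 (SE 0.25) for Mmp13, -0.11 (SE 0.66) for Mmp9 and 0.09 (SE 0.32) for Mmp14. For the inhibitors it was 0.59 (SE 0.71) for Timp1, -0.03 (SE 0.31) for Timp2 and 0.82 (SE 0.35) for Timp3, and for Mmp3 it was 0.78 (SE 1.05). For 3 genes the fitted sign ran against the mean CPM of the groups, which was 202 in ApcMin and 278 in VApcMinL for Mmp9, 410 and 431 for Timp2, and 31.8 and 28.7 for Mmp3. The 2 kits went in opposite directions for each of these genes, with a log2 difference (prior count of 2) in kit 2 and kit 3 of -1.34 and 1.31 for Mmp9 and of -0.17 and 0.33 for Timp2. For Mmp3, at 0 in VApcMinL replicate 2, the direction was not stable, and the fitted value was -6.18 without VApcMinL replicate 1. All adjusted p-values of these 9 genes were 1.00 by the edgeR test. The 2 libraries of each genotype did not overlap for 2 of these 9 members, Mmp10 and Timp3, both higher in the libraries labelled VApcMinL, where 22% of all genes tested did not overlap. With the top cell of each library left out both overlapped, with Mmp10 at 2956 and 2105 in ApcMin and 5262 and 2633 in VApcMinL, and Timp3 at 42.6 and 118 against 130 and 89.3. In the myeloid gate Mmp13 did not overlap (302 and 335 in ApcMin, 229 and 174 in VApcMinL), 1 of 5 members against 21.5% of all genes. No member was without overlap in the other classes, where 25.7% (endothelial), 8.96% (adenoma) and 7.6% (other epithelial) of all genes were.

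**Figure D5:**
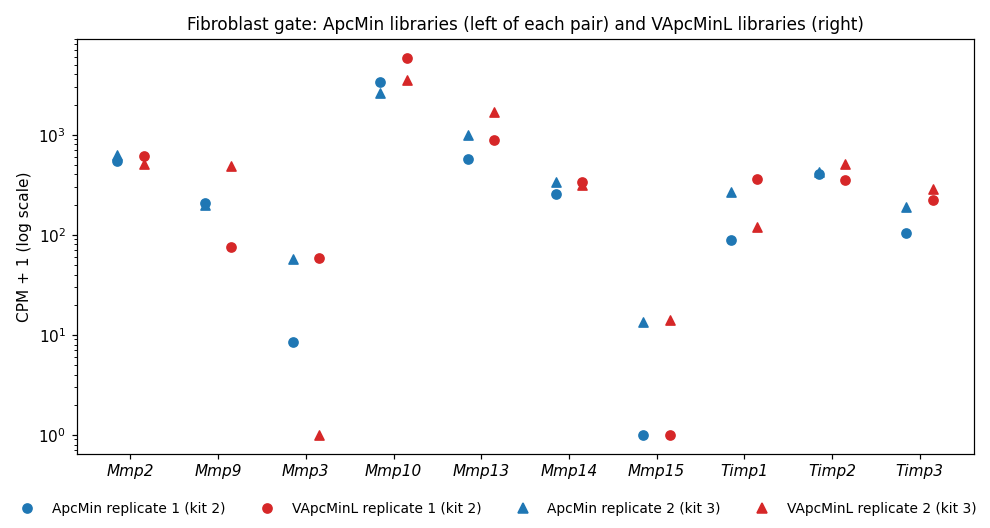
Fibroblast levels of the 10 genes in CPM plus 1 on a log axis, with ApcMin libraries at the left and VApcMinL libraries at the right of each pair (colour: group, shape: kit). Only Mmp10 and Timp3 have both VApcMinL values above both ApcMin values; Mmp3 and Mmp15 include libraries at 0.

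In the adenoma gate, which like other epithelial cells was targeted by the deletion of Lef1, the 2 kits gave opposite differences for 4 members. The log2 difference of VApcMinL minus ApcMin was 1.91 with kit 2 and -1.03 with kit 3 for Timp1, 1.09 and -0.58 for Timp2, 1.69 and -0.37 for Timp3, and 0.76 and -0.40 for Mmp14. Pooled over the kits the fitted differences were 0.43 (SE 0.80), 0.25 (SE 0.44), 0.64 (SE 0.54) and 0.17 (SE 0.32), none of them past the edgeR test. The summed level of the 11 adenoma markers, at 673, 2041, 1675 and 768 CPM, moved in the same direction as these 4 genes within each kit. Lef1 in that gate was also highest in VApcMinL replicate 1 and ApcMin replicate 2. How much of the kit difference lies in the makeup of the gate was not tested.

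The other genes of the pathway, a list of 24, were counted in the same fits. In the fibroblast gate 14 passed the filter, of which 9 were higher, 2 lower and 3 not called (20.8% and 18.5% of all genes), with a median log2 difference of 3.03. Several belong to the plasminogen activator system. Serpine2, an inhibitor of serine proteases, was at 549 to 1346 CPM in fibroblasts (log2 difference 8.18, SE 0.33), Plau, which makes urokinase, at 36.9 to 639 (6.48, SE 0.50), and Plat, which makes tissue plasminogen activator, at 140 to 613 (2.58, SE 0.41). Plat stood at 74.1 to 270 in the adenoma gate, a range that overlapped that of the fibroblast gate. Among enzymes, Mmp23 was at 49.2 to 93.2 (7.11, SE 0.52), Mmp19 at 22.7 to 41.0 (5.06, SE 0.55), and the proteoglycan-cleaving Adamts4 and Adamts1 at 12.3 to 53.0 and 24.9 to 83.2 (6.08, SE 0.63, and 4.16, SE 0.73). Both had a higher mean in the endothelial gate, at 67.7 against 41.0 for Adamts4 and 208 against 41.7 for Adamts1. Mmp12, the macrophage elastase, was called higher in fibroblasts from 0 to 15.1 CPM (2.42, SE 0.79) but stood at 131 to 442 in the myeloid gate (9.11, SE 0.27). The 2 lower genes were Mmp7 (-2.83, SE 0.47), a metalloproteinase of epithelial cells that stood at 147 to 227 in the adenoma gate and at 41.3 to 93.3 in other epithelial cells, and the sheddase Adam10 (-0.99, SE 0.28). In the other 4 classes 4, 5, 4 and 2 of the 14 were higher and 2, 6, 6 and 7 lower (endothelial, myeloid, adenoma and other epithelial). Of all genes tested, 19.6%, 24.6%, 30.7% and 31.3% were higher in these classes and 19.6%, 19.6%, 22.5% and 24.8% lower. Between genotypes 0 of the tested genes of this list were called in any class (edgeR), and at an unadjusted p under 0.05 there was 1, Serpine2 in the fibroblast gate.

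The genes whose levels ran most closely with each member over the 20 sums of library and class describe where each was found. These correlations rest on 5 classes of 4 shared libraries and carry no p. For Mmp10 they were the collagen genes Col6a1 (Pearson r = 0.986), Col1a2 (0.983) and Col6a2 (0.981), which are themselves markers of the fibroblast gate. For Mmp2 they were Nrg1 (0.985), Cxcl14 (0.980) and Tmem119 (0.972), and for Mmp13 Adamdec1 (0.991), Adgrl3 (0.991) and P2ry14 (0.990). Mmp9 ran with Lsp1 (0.978), Rgs10 (0.975) and Axl (0.974). Timp2 ran with Flna (0.965) and Selenon (0.947), Timp1 with Rcn2 (0.95), Zfp511 (0.933) and Armcx1 (0.927), and Timp3 with Pard6g (0.981), Ltbp4 (0.977) and Wwtr1 (0.976). For Mmp14 they were Anxa6 (0.949), Man2a2 (0.947) and Far1 (0.942), and Mmp15 had the loosest likeness, with Magi1 (0.912), Asap2 (0.895) and Zdhhc2 (0.855). Mmp3 was left out of this search, since it had 37 UMIs in all sums.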

How the data were processed

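The authors deposited UMI counts per gene and barcode for all barcodes of 4 libraries, without cell calling. The submitters' processing notes name Cell Ranger 2.1.1, Seurat 3.1.1 and the build mm10 (GRCm38), and the matrix header of the kit 3 libraries gives software version 3.1.0. The other steps of the upstream counting are not given in the sources used here. Counts were used as deposited, over the 27514 genes whose identifiers all 4 gene tables share. Barcodes needed at least 1000 UMIs and at most 20% mitochondrial UMIs. Marker gates (at least 4 markers and 20 marker UMIs per 10000, for the adenoma gate 4 of 11 markers and 2 UMIs per 10000) gave the classes, with thresholds set once the counts had been seen. Barcodes that passed more than 1 lineage gate were left out, which also served as the treatment of doublets.

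UMIs were summed per library and class and tested with edgeR 4.0.16 in R 4.3.3 (filterByExpr at a minimum count of 10, TMM scaling, quasi-likelihood test, Benjamini-Hochberg adjustment, called at 0.05). The comparison of classes had the library as a block, and that of genotypes the kit, which the labels give as shared by both libraries of 1 replicate number. Deviations of same-kit libraries from their group means correlated at 0.48 (fibroblast), 0.60 (endothelial), 0.41 (myeloid), 0.14 (adenoma) and 0.07 (other epithelial). The scripts were tested on simulated counts. DESeq2 1.42.0 and Scrublet (scanpy 1.11.5) served as alternatives. Shares of cells were taken after thinning each cell to 1000 UMIs, with exact intervals. Intervals cover counting error only.

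The 10 genes and all lists were chosen with earlier results of these data known. The genes named were the 10 members, Lef1, the 3 genes most correlated with each member of at least 50 UMIs, and those of 24 further pathway genes called in the fibroblast comparison. Xist, Acta2, S100a8, Csf3r and Serpine2 between genotypes were named after their values were seen. Some genes that these rules select are not reported here.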

Additional observations from a re-analysis of the deposited data

Results flagged for a closer look

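For 13 pairs of a member and a class each library held at least 50 UMIs, and in 9 of them the log2 difference of VApcMinL minus ApcMin had opposite signs in the 2 kits. Each kit holds 1 library per genotype, so the difference between the kits was not tested. In the adenoma gate the values with kit 2 and kit 3 were 0.76 and -0.40 for Mmp14, 1.91 and -1.03 for Timp1, 1.09 and -0.58 for Timp2, and 1.69 and -0.37 for Timp3. In other epithelial cells they were -0.47 and 1.3 for Mmp14, 0.44 and -0.27 for Mmp15, and -1.82 and 1.81 for Timp3, so Mmp14 and Timp3 moved in the reverse order to the adenoma gate. In the myeloid gate they were 0.61 and -0.61 for Mmp9 and 0.18 and -0.39 for Mmp14.

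The gate of T and NK cells, which entered no comparison, held Timp2 at 84.9, 71.1, 31.0 and 94.7 CPM (ApcMin and VApcMinL of replicate 1, then of replicate 2), from 34, 42, 5 and 41 UMIs. Other epithelial cells of the same libraries were at 4.63, 1.60, 0.453 and 5.42. Barcodes with 10 to 100 UMIs held Timp2 at 69.1, 62.8, 69.0 and 89.1, below the T and NK gate in 3 libraries and above it in ApcMin replicate 2, and the part of free RNA was not tested. The other inhibitors had at most 1 UMI in this gate in any library.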

How the results depend on the processing

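Of 37 differences between classes called for a member, 29 were called in the same direction under all of the 16 alternatives that could be fitted, and 0 were reversed under any. Those lost under some alternative were lower calls of Mmp10, Mmp13, Mmp14, Mmp15 and Timp3. The number of members called lower in the fibroblast gate was 0 to 1 with a library left out. In the endothelial gate it was 3 with DESeq2, 3 without a filter on low counts, 0 with cells called at 10% of the top barcodes, 2 with stricter gates, 2 with fibroblasts with smooth muscle genes included, and 0 to 1 with a library left out. In the myeloid gate it was 4 without a filter. In the adenoma gate the members called higher were 2 without a filter and 1 to 2 with a library left out, and those called lower 3 to 5 with a library left out. Between genotypes no member was called in any class under any alternative. The kit as the replicate block was part of the main comparison, and without the block the genes called were 0 in the fibroblast and 0 in the myeloid gate and the block changed no member's call. Without a filter the genes called were 18 (fibroblast), 26 (endothelial), 25 (myeloid), 1 (adenoma) and 4 (other epithelial), and with DESeq2 they were 2 (endothelial), 0 (myeloid), 6 (adenoma) and 5 (other epithelial). With cells called at 10% of the top barcodes they were 2 (endothelial) and 3 (myeloid), and with the adenoma gate without Wnt inhibitor genes 1 (adenoma). With a library left out, which leaves 1 library in a group whose spread is taken from the rest, they ranged from 0 to 18 in the fibroblast, 6 to 32 in the endothelial, 1 to 16 in the myeloid, 0 to 1 in the adenoma and 0 to 4 in the other epithelial gate. The highest of these came without VApcMinL replicate 1 in the fibroblast (18), endothelial (32) and adenoma (1) gates, without ApcMin replicate 1 in the myeloid gate (16) and without VApcMinL replicate 2 in other epithelial cells (4). The cause of these changes was not tested. Without thinning, which reads deeper cells at full depth, the mean percent of fibroblasts with a UMI was 89.7 for Mmp2, 19.9 for Mmp9, 86.9 for Mmp10, 40.2 for Mmp13, 81.9 for Mmp14, 6.53 for Mmp15, 47.0 for Timp1, 87.5 for Timp2 and 29.0 for Timp3. The alternatives that include the fibroblasts with smooth muscle genes were chosen after the data had been seen.

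Depth limits the stromal classes most. The fibroblast gate of VApcMinL replicate 2 held 9 cells and the endothelial gates of replicate 2 held 8 and 7, where 3 UMIs correspond to 39.1, 35.8 and 40.9 CPM.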
